A study of Mus musculus with 12 samples.

Results

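Transcript levels in wild-type mouse liver 6 hours after methyl methanesulfonate (MMS) were set against those of untreated wild-type liver, on 6 of the 12 arrays in the study. The arrays were chosen by their titles and not by any measured value. The comparison holds 3 arrays of MMS-treated wild-type mice and 3 arrays of untreated wild-type mice, 1 animal each. All mice were C57Bl/6J aged 6 to 8 weeks, and the treated animals had a single intraperitoneal dose of 75 mg/kg. The other 6 arrays, 3 from MMS-treated and 3 from untreated Aag knock-out mice of the same strain and age, entered the fit for its estimate of the spread and for the comparison of responses at the end. The labels do not say which cells lost the gene, whether control animals were injected, what sex the mice were or at which hour livers were taken. Whole liver was measured, so a lower value can mean fewer cells of a type or less RNA per cell, and these cannot be told apart. Of the 2 Mpg probe sets, the targeted gene's, 1 read 4.95 to 5.75 in knock-out arrays and 6.21 to 6.94 in wild-type arrays, so the genotypes did not overlap there, while the brighter read 7.36 to 8.18 in knock-out arrays and 7.84 to 8.50 in wild-type arrays, which overlap. Where the probes lie relative to the deleted part is not given in the sources used here.

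MMS transfers methyl groups to DNA bases and to other nucleophiles, proteins included. Aag (gene symbol Mpg) is the glycosylase that removes alkylated bases, and the sites it leaves are repaired by the later enzymes of base excision repair. The liver is the main source of plasma proteins and lipids, so its endoplasmic reticulum is densely loaded with secretory cargo. Misfolded cargo activates the unfolded protein response, in which ATF6 and XBP1 raise chaperones and degradation factors and ATF4 raises genes of amino acid supply and stress signalling.

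The stress elements of genes in these branches are shown here because several of the genes described next carry them upstream of their start. Windows of 250 bases before to 50 bases after each start came from RefSeq (GRCm38.p6) and covered 9887 of the 12393 measured genes. They were searched on both strands for the endoplasmic reticulum stress element ERSE, for its variant ERSE-II and for the C/EBP-ATF element read by ATF4 (TGATGCAA). Capitals mark the match, which reads as its reverse complement where the element lies on the opposite strand.
Hspa5: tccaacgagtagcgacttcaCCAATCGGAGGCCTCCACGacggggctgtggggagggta
Creld2: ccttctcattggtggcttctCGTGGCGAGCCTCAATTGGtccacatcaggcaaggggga
Syvn1: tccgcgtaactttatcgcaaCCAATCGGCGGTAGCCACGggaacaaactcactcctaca
Herpud1: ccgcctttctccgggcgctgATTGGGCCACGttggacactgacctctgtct
Nupr1: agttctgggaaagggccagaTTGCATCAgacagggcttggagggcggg
Atf3: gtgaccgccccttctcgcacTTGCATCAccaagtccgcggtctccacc
Fgf21: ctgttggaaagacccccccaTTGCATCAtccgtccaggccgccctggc
Inhbe: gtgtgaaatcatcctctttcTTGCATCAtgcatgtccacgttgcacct
These stretches lie at chr2:34772005-34772063, chr15:88819500-88819558 and chr19:6046512-6046570 on the plus strand (ERSE), at chr8:94386357-94386407 on the plus strand (ERSE-II), and at chr7:126625553-126625600, chr1:191183416-191183463, chr7:45615602-45615649 and chr10:127352002-127352049 on the minus strand (C/EBP-ATF element). ERSE occurred in 39 of all 32851 windows (0.119%) and in 18 of the 9887 measured genes (0.182%). It lay in 3 of 224 genes called higher after MMS (1.34%) and in 0 of 503 called lower. ERSE-II occurred in 12 windows (0.0365%) and in 8 measured genes (0.0809%). It lay in 2 of the 224 genes called higher (Dnajb11 and Herpud1) and in 1 of the 503 called lower. The C/EBP-ATF element occurred in 294 windows (0.895%) and in 84 measured genes (0.850%). It lay in 6 of the 224 genes called higher (2.68%) and in 9 of the 503 called lower (1.79%). A match describes the letters in the window and not a bound site.

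A gene was called when its adjusted p was under 0.05 in limma, with Benjamini-Hochberg adjustment over all 22626 probe sets. Changes are differences of log2 values, treated minus untreated, with the fit's standard error, and precision is limited by 3 arrays a group. In treated liver 273 genes rose (2.2% of 12393) and 660 fell (5.33%), 7.53% in all. Among probe sets 1458 were called (6.44%), 451 higher (1.99%) and 1007 lower (4.45%). The median absolute change was 0.81 among genes that rose, 84 of which differed at least 2-fold, and 0.90 among genes that fell, 259 of which did. The balance of directions depends on the scaling: of the called probe sets 30.9% were higher with the deposited scaling, 53.7% when arrays were quantile normalized again and 72.8% with each array centred on its median. Array medians of the deposited values were 7.42 to 7.53 in treated arrays and 7.63 to 7.75 in untreated arrays. The groups of a gene did not overlap in 4141 cases, 33.4% of all genes. All 273 genes that rose and all 660 that fell were among them, so a lack of overlap adds nothing to a call.

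The 6 arrays were not equally alike. Treated arrays correlated with each other at 0.977 to 0.987, untreated arrays at 0.987 to 0.995, and pairs across the groups at 0.964 to 0.986. Treated array 1 was closer to untreated array 2 (0.986) than to treated array 2 (0.977). Without treated arrays 1, 2 and 3 in turn 454, 425 and 424 of the 933 called genes stayed called, and without untreated arrays 1, 2 and 3 the numbers were 197, 525 and 222. A total of 171 genes (1.38%), 27 of which rose (0.218%) and 144 fell (1.16%), were called in each of these 6 fits, and they are named as kept in every fit below. Median changes move with the scaling too: the median of all genes was -0.06 with the deposited scaling, 0.0089 after quantile normalization and 0.13 after centring. Under centring list medians lie about 0.2 higher, so a median just below 0 turns positive there, and the counts of calls are given without reading a direction from it. Counts of positive and negative values below are those of the deposited scaling and move with the scaling in the same way.

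**Figure D1:**
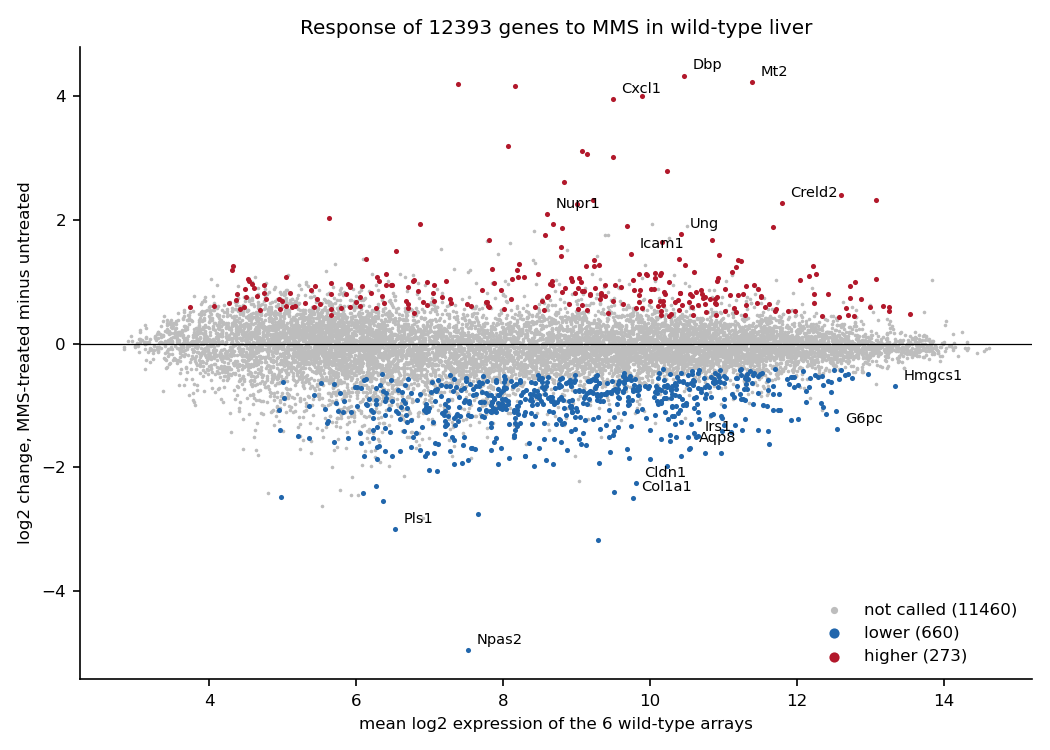
Each point is 1 of 12393 genes, with the mean log2 expression of the 6 wild-type arrays on the x axis and the log2 change, MMS-treated minus untreated, on the y axis. Called genes, 273 higher in red and 660 lower in blue, lie across the range of expression, with Dbp and Mt2 at the top and Npas2 at the bottom.

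Genes of the secretory pathway were among those that rose, in each of its 6 lists, beginning with folding. Creld2, a disulfide isomerase-like protein of the endoplasmic reticulum, read 12.83, 13.11 and 12.85 in MMS-treated arrays, against 10.34, 10.63 and 11.01 in untreated arrays. Hspa5, the chaperone BiP, read 13.58, 13.40 and 13.48 in MMS-treated arrays, against 12.73, 12.94 and 12.94 in untreated arrays. The groups lay apart for both genes, by 1.82 log2 units at their nearest values for Creld2 and by 0.46 for Hspa5, whose untreated level was already high. In limma Creld2 rose by 2.27 ± 0.35 (adjusted p = 0.00711, kept in every fit) and Hspa5 rose by 0.62 ± 0.15 (adjusted p = 0.038, a call lost in each of the 6 fits that leave out 1 array). Of 27 measured chaperones and folding enzymes 6 rose and 0 fell, with a list median of 0.42 beside -0.06 for all genes. Besides these they were the secreted folding factor Manf (1.26 ± 0.27), the co-chaperone Dnajb11 (0.65 ± 0.16), the prolyl isomerase Fkbp11 (1.43 ± 0.32) and the thioredoxin-domain protein Txndc11 (1.06 ± 0.25). ERSE in the promoter did not go with a call in each case: the lectin chaperones Calr (0.07 ± 0.13) and Canx (-0.09 ± 0.13) carry it and were not called.

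Retrotranslocation, glycosylation and vesicle transport were represented as well. Syvn1, the ubiquitin ligase of endoplasmic reticulum-associated degradation, read 10.76, 10.43 and 10.73 in MMS-treated arrays, against 8.47, 8.88 and 8.87 in untreated arrays. In limma Syvn1 rose by 1.90 ± 0.35 (adjusted p = 0.0133). Herpud1, which recruits substrates to that ligase, rose by 1.00 ± 0.22. In the degradation list 3 of 22 genes rose and 0 fell. Of 25 genes of N-glycosylation 5 rose, among them Gmppb, which makes GDP-mannose (1.64 ± 0.31), and Alg2, a mannosyltransferase of the lipid-linked precursor (1.37 ± 0.30). The single member that fell was Tusc3, an oligosaccharyltransferase subunit (-0.72 ± 0.13). Transport between the endoplasmic reticulum and the Golgi had 5 of 34 genes higher and 31 positive values, led by Arfgap3, which switches off the coat GTPase ARF1. Arfgap3 read 9.84, 10.41 and 10.13 in MMS-treated arrays, against 7.09, 8.51 and 8.03 in untreated arrays. In limma Arfgap3 rose by 2.25 ± 0.39 (adjusted p = 0.0109, kept in every fit). Tmed3, a cargo receptor, rose by 1.27 ± 0.26, and Srprb, an anchor of the signal recognition particle, rose by 1.11 ± 0.23, 1 of 2 called among 20 translocon genes.

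Regulators of the response included members of the ATF6 and ATF4 branches. Nupr1, a small chromatin protein induced by ATF4, read 9.50, 9.74 and 9.70 in MMS-treated arrays, against 7.23, 7.45 and 7.97 in untreated arrays. The lowest treated value lay 1.53 above the highest untreated value, and Nupr1 rose by 2.10 ± 0.29 (adjusted p = 0.00457, kept in every fit). Atf6, a sensor of the response, rose by 0.87 ± 0.20, and Creb3l2, a related membrane-bound factor, rose by 0.95 ± 0.24. Trib3, a pseudokinase induced by ATF4, averaged 9.74 ± 0.38 in MMS-treated arrays and 7.88 ± 0.17 in untreated arrays (SD, n = 3 each), and rose by 1.86 ± 0.45 (adjusted p = 0.0352). Atf3 rose by 0.95 ± 0.21 and the secreted hormone Fgf21 rose by 0.59 ± 0.13, both with low values in untreated arrays (5.92, 5.87 and 6.00 for Atf3, 5.69, 5.43 and 5.73 for Fgf21). Altogether 6 of 22 sensors and factors rose, and 20 of 22 were positive. Atf4 itself (0.41 ± 0.19), Ddit3 (0.62 ± 0.19) and Xbp1 (0.18 ± 0.17) were not called, and the array does not distinguish the spliced form of Xbp1 here. Across the 6 secretory lists 28 of 150 genes were called (18.7%, beside 7.53% of all genes), 27 of them higher. Of these 28, 14, 9 and 9 stayed called without treated arrays 1, 2 and 3, and 3, 16 and 4 without untreated arrays 1, 2 and 3.

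**Figure D2:**
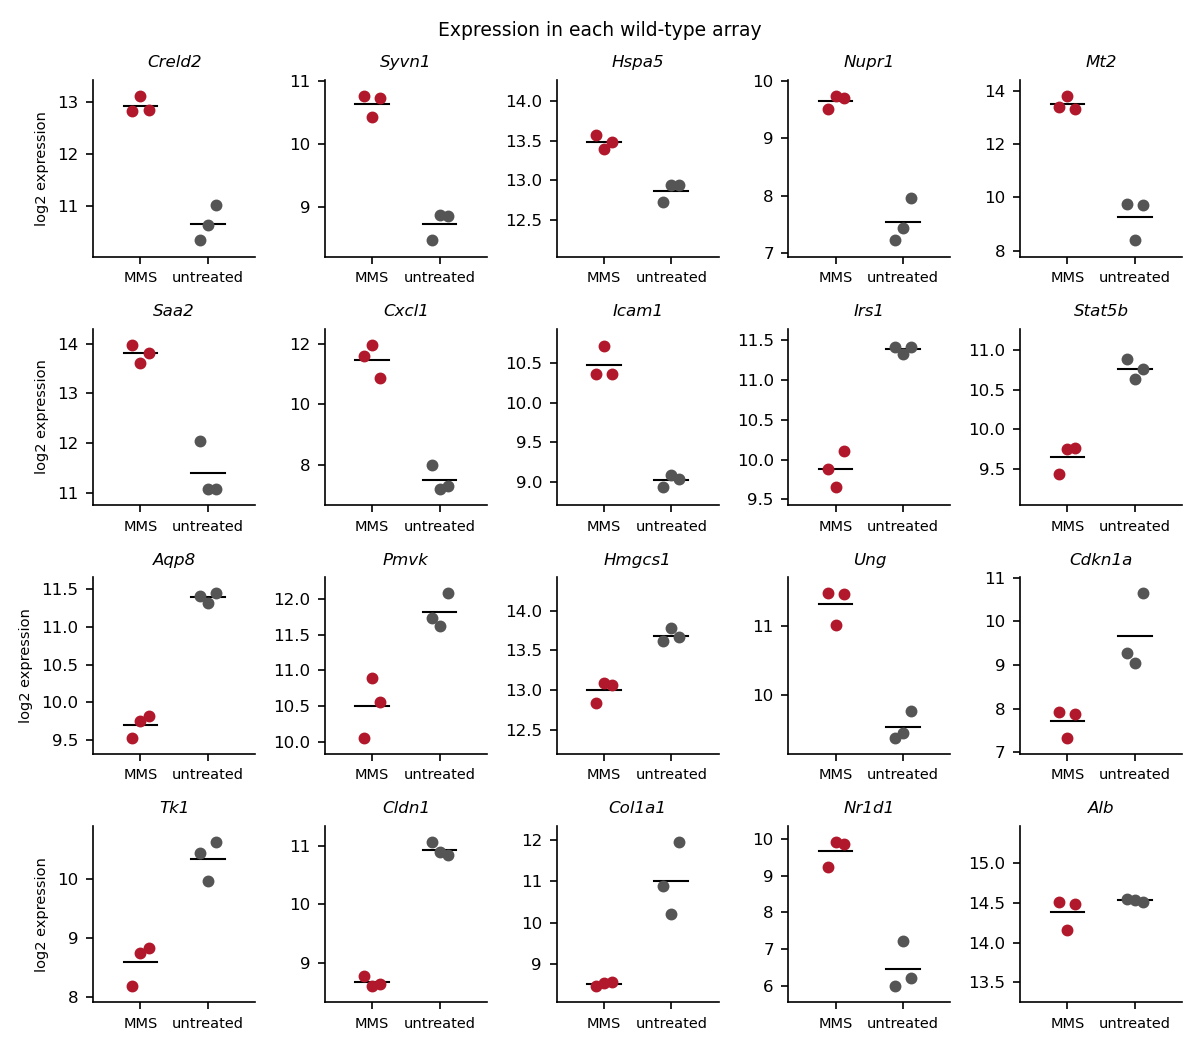
Log2 expression of 20 genes in the 3 MMS-treated arrays (red, left) and the 3 untreated arrays (grey, right) of wild-type liver, with horizontal lines at group means and axes that do not start at 0. The groups do not overlap for any gene shown; they lie 2.85 apart for Cxcl1 and 2.06 for Cldn1, but only 0.01 apart for Alb (albumin), which limma did not call.

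Some genes that charge transfer RNA or build ribosomes also rose, while the ribosome and the proteasome had few or no calls. Of 18 cytosolic aminoacyl-tRNA synthetases 5 rose and 17 were positive. Wars, which charges tryptophan, read 9.65, 9.49 and 9.44 in MMS-treated arrays, against 8.55, 8.66 and 8.82 in untreated arrays, rose by 0.85 ± 0.13 (adjusted p = 0.00737, kept in every fit), and its 3 other probe sets were called the same way. Rars, Qars, Yars and Sars rose by 0.53 to 0.63. Without treated array 1, 3 synthetases were called, and in each other reduced fit only 1, Wars. In ribosome biogenesis 5 of 44 genes rose and 38 were positive, with a median of 0.36. They were Taf1d, a subunit of the RNA polymerase I selectivity factor (1.01 ± 0.19), the nucleolar GTPases Gnl3 (0.94 ± 0.18) and Gnl2 (0.75 ± 0.19), the processing factor Wdr43 (0.81 ± 0.20) and the polymerase I subunit Polr1e (0.81 ± 0.20). Without treated arrays 1, 2 and 3 this list had 5, 2 and 1 calls. Without untreated arrays 1, 2 and 3 it had 0, 3 and 0. None of 27 translation factors, 35 mitochondrial ribosomal proteins, 37 splicing factors or 31 proteasome subunits was called in limma, and 6, 2, 4 and 2 of them had an unadjusted p under 0.05. Clpx, the unfoldase of the mitochondrial matrix protease, read 10.31, 10.90 and 10.45 in MMS-treated arrays, against 12.02, 11.91 and 11.93 in untreated arrays, and fell by 1.40 ± 0.29 (adjusted p = 0.0201). The groups lay 1.01 apart at their nearest values. In these 11 lists 19 of 327 genes were called (5.81%, beside 7.53% of all genes), 15 higher and 4 lower. Without treated arrays 1, 2 and 3 the calls kept were 10, 9 and 3, and without untreated arrays 1, 2 and 3 they were 1, 8 and 1.

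Metallothioneins had the largest rises among genes of metal handling, and 2 zinc transporters rose with them. The metal response element (TGCACNC or TGCGCNC) upstream of both metallothionein genes is shown because these genes rose most among those of metal handling. It is common: 25.7% of all windows and 37.5% of the 9887 measured genes hold it. So do 85 of 224 genes called higher (37.9%) and 235 of 503 called lower (46.7%).
Mt1: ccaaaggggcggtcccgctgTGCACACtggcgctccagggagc
Mt2: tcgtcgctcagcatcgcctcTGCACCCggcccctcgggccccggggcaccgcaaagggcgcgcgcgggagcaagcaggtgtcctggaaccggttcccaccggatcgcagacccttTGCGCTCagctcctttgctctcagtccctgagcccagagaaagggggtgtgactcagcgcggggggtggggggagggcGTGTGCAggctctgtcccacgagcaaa
The stretches are chr8:94179046-94179088 and chr8:94172375-94172594 on the plus strand, with capitals on the matches. Mt2 read 13.39, 13.81 and 13.33 in MMS-treated arrays, against 9.76, 8.39 and 9.70 in untreated arrays, and rose by 4.23 ± 0.62. Mt1 read 14.29, 14.14 and 14.29 in MMS-treated arrays, against 12.22, 11.35 and 12.19 in untreated arrays, and rose by 2.32 ± 0.42. Treated values spread over 0.47 for Mt2 and 0.15 for Mt1, and untreated array 2 was the lowest for both. Slc30a5, which moves zinc into the secretory pathway, read 11.82, 12.02 and 11.89 in MMS-treated arrays, against 10.55, 10.64 and 10.53 in untreated arrays, and rose by 1.34 ± 0.17 (adjusted p = 0.00338). All of these were kept in every fit. Slc39a14, an importer of zinc and iron, rose by 0.80 ± 0.15, while the related importer Slc39a8 fell by 0.62 ± 0.13 and the iron exporter ferroportin, Slc40a1, fell by 0.51 ± 0.11. Of 29 metal genes 4 rose and 2 fell.

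Genes of the acute phase, most of which encode plasma proteins that the liver secretes in inflammation, rose in 9 of 28 cases with 0 lower, Mt1 and Mt2 included. Without treated array 3, or without untreated array 2 or 3, only 3 of the list were called. These were Mt1, Mt2 and Steap4. Saa2, a serum amyloid, read 13.98, 13.61 and 13.82 in MMS-treated arrays, against 12.04, 11.07 and 11.07 in untreated arrays, and rose by 2.41 ± 0.53 (adjusted p = 0.0245). Lcn2, an iron-scavenging lipocalin, read 12.90, 12.71 and 12.26 in MMS-treated arrays, against 11.76, 10.18 and 10.25 in untreated arrays, and rose by 1.89 ± 0.49 (adjusted p = 0.0472). For both genes untreated array 1 stood above the other untreated arrays and below every treated value, and the calls were lost in 6 (Saa2) and 5 (Lcn2) of the 6 reduced fits. Near-identical serum amyloid and Orm genes can share probes, so values of single members are uncertain. Steap4, a metalloreductase induced in inflammation, rose by 1.02 ± 0.17 and was kept in every fit. Upstream of these proteins, Stat3 rose by 0.68 ± 0.17, its inhibitor Socs3 rose by 3.07 ± 0.70 and the NF-kB cofactor Bcl3 rose by 1.14 ± 0.28, in calls lost in 4 or more of the reduced fits. Of 28 genes of IL-6 signalling these 3 rose and 1 fell (Myc, -1.60 ± 0.33). Complement and coagulation had 0 of 45 genes higher, 1 lower (F8, -0.59 ± 0.14) and 35 negative values, with changes from -0.71 to 0.29.

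Single genes of leukocyte recruitment were among those that rose, and interferon response genes among those that fell. Of 29 chemokines and chemokine receptors 1 rose (Cxcl1) and 1 fell (Cx3cl1), with 22 negative values and a median of -0.25. The share called was 6.90%, beside 7.53% of all genes. Cxcl1, a neutrophil chemokine, read 11.60, 11.96 and 10.86 in MMS-treated arrays, against 8.01, 7.21 and 7.32 in untreated arrays, and rose by 3.96 ± 0.86 (adjusted p = 0.0242). Icam1, the adhesion molecule that holds leukocytes, read 10.35, 10.71 and 10.36 in MMS-treated arrays, against 8.93, 9.09 and 9.03 in untreated arrays, and rose by 1.45 ± 0.15 (adjusted p = 0.00195, kept in every fit). The treated arrays spread over 1.10 for Cxcl1, whose call was lost in 5 of 6 reduced fits, and over 0.35 for Icam1. Tnfrsf1a, a receptor of tumour necrosis factor, rose by 0.86 ± 0.15, and 3 of 27 NF-kB genes rose and 1 fell in all. Beside these stand the neutrophil markers: 4 of 19 rose and 0 fell, with 11 positive values, and the mean level of the list was 6.17 to 6.50 in MMS-treated arrays and 5.79 to 6.12 in untreated arrays. The calgranulins S100a8 and S100a9 rose by 2.33 ± 0.44 and 2.62 ± 0.57, Hdc rose by 0.62 ± 0.16, and Lcn2 is also listed among them, but the granule genes Mpo (-0.09 ± 0.12), Elane (0.09 ± 0.20) and Camp (-0.22 ± 0.24) were not called. Without untreated array 3 none of the neutrophil markers was called. The part of neutrophils in the acute phase and recruitment results was not tested. Of 28 interferon response genes 5 fell, 0 rose and 21 were negative, with a median of -0.44 that was -0.24 under centring. None of them was called without treated array 1 or 2 or without untreated array 1 or 3. Rsad2, an antiviral enzyme, read 10.21, 10.41 and 10.44 in MMS-treated arrays, against 11.82, 11.28 and 11.91 in untreated arrays, and fell by 1.32 ± 0.27. Its relatives in the programme, Ifit1, Ifit2, Oasl1 and Usp18, fell, with changes of -0.81 to -0.63. Over the 9 lists on metals, inflammation and immunity 32 of 236 genes were called (13.6%, beside 7.53% of all genes), 20 higher and 12 lower. Of these, 14, 10 and 15 stayed called without treated arrays 1, 2 and 3, and 7, 14 and 6 without untreated arrays 1, 2 and 3.

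**Figure D3:**
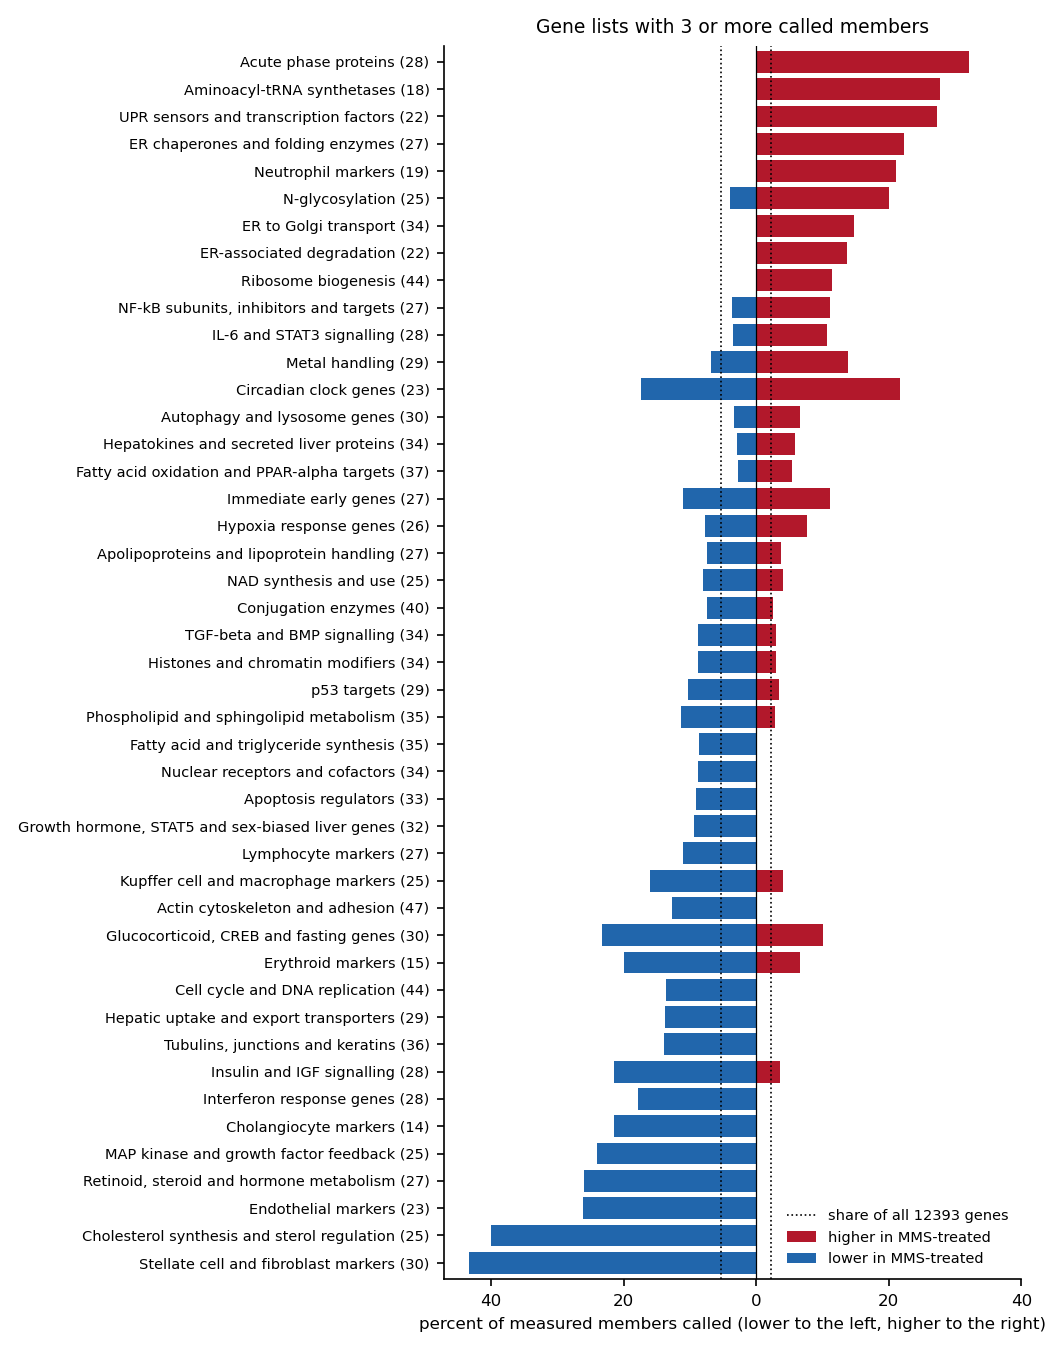
Bars give the percent of the measured members (number in brackets) of each gene list that were called higher (red, to the right) or lower (blue, to the left) in MMS-treated wild-type liver, for lists with at least 3 called members. Dotted lines mark the shares over all genes, 2.2% higher and 5.33% lower: acute phase proteins and aminoacyl-tRNA synthetases lie farthest right, stellate cell markers and cholesterol synthesis farthest left.

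Some components of hormone and growth factor signalling were among the genes that fell, while most members of these lists were not called. Irs1, the docking protein of the insulin receptor, had the smallest adjusted p of the 12393 genes. It read 9.88, 9.65 and 10.10 in MMS-treated arrays, against 11.42, 11.33 and 11.41 in untreated arrays, 1.23 apart at their nearest values, and fell by 1.51 ± 0.13 (2.84-fold, adjusted p = 0.0011, kept in every fit). The receptor-binding adaptors Grb14 and Grb10 fell, with changes of -0.86 ± 0.14 and -1.01 ± 0.22, and Pik3r1, the regulatory subunit of phosphoinositide kinase, fell by 0.82 ± 0.18. In all 6 of 28 insulin and IGF genes fell and 1, Trib3, rose. Of 32 genes of growth hormone signalling and sex-biased expression 3 fell (9.38%, beside 5.33% of all genes) and 0 rose. Stat5b, the factor through which growth hormone acts on liver, read 9.43, 9.75 and 9.77 in MMS-treated arrays, against 10.88, 10.63 and 10.76 in untreated arrays, and fell by 1.11 ± 0.17 (adjusted p = 0.00645, kept in every fit). Stat5a fell by 0.73 ± 0.13, while Igf1, a main target of the axis, was not called (-0.02 ± 0.12, 95% interval -0.29 to 0.24).

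Of 25 measured genes of MAP kinase and growth factor feedback 6 fell and 0 rose, 1 of them a ligand and the others inhibitors. Dusp16, a phosphatase of JNK and p38 kinases, read 10.16, 10.34 and 10.43 in MMS-treated arrays, against 11.20, 11.15 and 11.21 in untreated arrays, and fell by 0.87 ± 0.11 (adjusted p = 0.00386, kept in every fit). Dusp1, a phosphatase induced by stress and glucocorticoids, fell by 1.07 ± 0.21, and the receptor kinase inhibitors Spry2 and Spred2 fell, with changes of -1.15 ± 0.23 and -1.05 ± 0.24. Ereg, a ligand of the epidermal growth factor receptor, fell by 1.40 ± 0.25. Among 27 immediate early genes 3 rose and 3 fell: Klf10 and Fosl2 rose by 1.25 ± 0.27 and 0.65 ± 0.16 beside Atf3, and Myc, Btg1 and Zfp36l1 fell, with changes of -1.60 ± 0.33, -1.39 ± 0.24 and -0.51 ± 0.13. Jun (0.36 ± 0.29) and Fos (0.01 ± 0.49) were not called. In the activin branch of TGF-beta signalling the subunits moved apart. Inhbe, a liver-specific subunit, read 9.16, 9.39 and 9.81 in MMS-treated arrays, against 7.20, 8.41 and 7.49 in untreated arrays, and rose by 1.75 ± 0.40. Inhba read 7.32, 6.91 and 7.01 in MMS-treated arrays, against 8.90, 8.40 and 8.69 in untreated arrays, and fell by 1.59 ± 0.25 (adjusted p = 0.00718, kept in every fit). The change of each subunit refers to its own probe set, so their levels are not compared.

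Of 30 genes that fasting, cyclic AMP or glucocorticoids raise, 3 rose and 7 fell, and all 3 that rose are also acute phase genes (Mt1, Mt2 and Lcn2). The balance moved with single arrays. In the fits without treated array 1 and without treated array 2, 2 rose and 2 fell, and without treated array 3, 2 rose and 4 fell. Without untreated array 1, 3 rose and 1 fell, without untreated array 2, 2 rose and 3 fell, and without untreated array 3, 2 rose and 1 fell. Pdk4, the kinase that blocks pyruvate dehydrogenase, read 10.27, 10.15 and 9.84 in MMS-treated arrays, against 11.55, 11.79 and 12.23 in untreated arrays, and fell by 1.77 ± 0.19 (adjusted p = 0.00214, kept in every fit). Ppargc1a, the coactivator of gluconeogenic genes, fell by 1.62 ± 0.32. G6pc, which releases glucose, read 11.84, 11.06 and 12.69 in MMS-treated arrays, against 13.13, 13.29 and 13.31 in untreated arrays, and fell by 1.38 ± 0.34. Treated values of G6pc ranged over 1.63, and its call was lost in 5 of the 6 reduced fits. Tsc22d3, a glucocorticoid-induced leucine zipper protein, fell by 1.85 ± 0.45, whereas Pck1, the other gatekeeper of gluconeogenesis, was not called (0.17 ± 0.15), while its other probe set was called lower. Over the 9 signalling lists 41 of 241 genes were called (17.0%, beside 7.53% of all genes), 10 higher and 31 lower. Without treated arrays 1, 2 and 3 the calls kept were 20, 19 and 22, and without untreated arrays 1, 2 and 3 they were 13, 22 and 13.

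Among transcriptional regulators the circadian clock held 9 of 19 calls, 5 higher and 4 lower of 23 measured. Nr1d1 and Nr1d2, the REV-ERB repressors, rose by 3.19 ± 0.33 and 1.68 ± 0.18. The repressor Cry1 read 9.07, 9.15 and 9.01 in MMS-treated arrays, against 10.95, 10.65 and 11.20 in untreated arrays, and fell by 1.86 ± 0.22. All 3 were kept in every fit. Clock transcripts cycle over the day, the hours of collection are not given, and treatment and a difference in hour cannot be told apart here; their part in the other results was not tested. Of 21 regulators that define the hepatocyte 2 were called (9.52%): Prox1 rose by 1.09 ± 0.25 and Gata4 fell by 0.71 ± 0.17, while Hnf4a (-0.01 ± 0.13) and Cebpa (-0.07 ± 0.12) were not called. Of 34 nuclear receptors and cofactors 3 fell (8.82%, beside 5.33% of all genes) and 0 rose. Those that fell included the thyroid hormone receptor Thra (-1.20 ± 0.22) and the corepressor Nrip1 (-0.78 ± 0.13). The DNA methyltransferases Dnmt3b and Dnmt1 fell, with changes of -1.14 ± 0.24 and -0.64 ± 0.15, and the histone variant gene H2ax rose by 1.21 ± 0.31, a call lost in every reduced fit. Over the 5 lists 19 of 135 genes were called (14.1%, beside 7.53% of all genes), 8 higher. Of these, 11, 9 and 10 stayed called without treated arrays 1, 2 and 3, and 5, 11 and 6 without untreated arrays 1, 2 and 3.

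Cholesterol synthesis was the metabolic list with the most calls, 10 of 25 lower and 0 higher, with 22 negative values and a median of -0.54. The calls ran along the pathway. Hmgcs1, at its start, read 12.84, 13.10 and 13.06 in MMS-treated arrays, against 13.61, 13.78 and 13.67 in untreated arrays, and its 3 other probe sets were called the same way. Pmvk, of the mevalonate steps, read 10.06, 10.90 and 10.56 in MMS-treated arrays, against 11.74, 11.62 and 12.08 in untreated arrays. Both genes were kept in every fit, with falls of 0.69 ± 0.11 and 1.31 ± 0.20. Downstream, Lss, which closes the sterol rings, fell by 0.84 ± 0.21, and Msmo1, Nsdhl, Sc5d and Dhcr7, which turn lanosterol into cholesterol, fell, with changes of -0.89 to -0.57. Insig2, which holds the sterol sensor in the endoplasmic reticulum, fell by 1.02 ± 0.24. Fewest members stayed called without untreated arrays 1 and 3, 3 lower in either case.

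Other lipid genes had fewer calls. In fatty acid and triglyceride synthesis 3 of 35 fell (8.57%, beside 5.33% of all genes). Fasn (-0.68 ± 0.33) and Scd1 (-0.15 ± 0.13) were not called. Scd2, a desaturase, read 8.23, 8.05 and 8.39 in MMS-treated arrays, against 9.85, 9.45 and 9.61 in untreated arrays, and fell by 1.42 ± 0.14 (adjusted p = 0.00186, kept in every fit). In fatty acid oxidation 2 of 37 rose, the isomerase Eci2 (0.73 ± 0.16) and Fgf21, and Pdk4 was the 1 that fell. Bile acid synthesis had 1 of 25 called, the reductase Akr1d1 (-0.52 ± 0.12). Lipoprotein genes included the lipase Lpl, which fell by 1.06 ± 0.22, the HDL receptor Scarb1, which fell by 0.81 ± 0.21, and Apoa5, which rose by 0.49 ± 0.10. Enzymes of sphingosine metabolism were among the calls. Sgpl1, the lyase that breaks down sphingosine phosphate, read 9.45, 9.88 and 9.74 in MMS-treated arrays, against 10.68, 10.57 and 10.61 in untreated arrays, and fell by 0.93 ± 0.15 (kept in every fit). The ceramidase Asah1 fell by 0.68 ± 0.12, and Sphk2, the kinase that makes sphingosine phosphate, rose at the probe set used (95% interval 3.05 to 4.95), with an opposite sign at its other probe set. Chka, the first kinase of phosphatidylcholine synthesis, read 10.57, 10.22 and 10.38 in MMS-treated arrays, against 11.84, 11.90 and 11.73 in untreated arrays, and fell by 1.43 ± 0.25 (adjusted p = 0.0113). In the 6 lipid lists 25 of 183 genes were called (13.7%, beside 7.53% of all genes), 4 higher and 21 lower. Of these 25 genes 15 stayed called under centring. Of the 25 called, 14, 17 and 11 stayed called without treated arrays 1, 2 and 3, and 7, 13 and 9 without untreated arrays 1, 2 and 3.

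Enzymes of retinoid, steroid and hormone metabolism fell in 7 of 27 cases with 0 higher. Dhrs3, which reduces retinal, read 11.50, 11.79 and 11.69 in MMS-treated arrays, against 12.63, 12.56 and 12.60 in untreated arrays, and fell by 0.94 ± 0.13 (adjusted p = 0.00476). Hsd3b2, a hydroxysteroid dehydrogenase, read 10.11, 10.42 and 10.24 in MMS-treated arrays, against 11.50, 11.44 and 11.28 in untreated arrays, and fell by 1.15 ± 0.13 (adjusted p = 0.00265). Rdh5, a retinol dehydrogenase, and Akr1c20, a ketosteroid reductase, fell, with changes of -0.97 ± 0.15 and -0.81 ± 0.11. These 4 were kept in every fit. Hsd3b genes are near-identical and may share probes, and Bco2, which cleaves carotenoids, fell by 1.30 ± 0.28 in a call lost in 5 of 6 reduced fits. Afmid, the formamidase of the tryptophan route to NAD, read 7.88, 8.59 and 8.32 in MMS-treated arrays, against 9.73, 9.55 and 10.13 in untreated arrays, and fell by 1.54 ± 0.20 (adjusted p = 0.00386, kept in every fit). Nnmt, which methylates nicotinamide, read 12.74, 12.95 and 12.80 in MMS-treated arrays, against 11.83, 11.74 and 11.52 in untreated arrays, and rose by 1.13 ± 0.20 (adjusted p = 0.0112). Nampt, the salvage enzyme, was not called (0.11 ± 0.19), and 3 of 25 NAD genes were called in all. Amino acid catabolism had 2 of 41 called lower with 35 negative values, and the urea cycle 1 of 22, the ammonia transporter Rhbg (95% interval -1.44 to -0.57). No gene of 35 in nucleotide synthesis or 20 in heme and polyamine synthesis was called in limma, with 5 and 4 at an unadjusted p under 0.05. Over these 7 lists 14 of 196 genes were called (7.14%, beside 7.53% of all genes), 1 higher, and 8 stayed called under centring. Calls kept numbered 7, 10 and 9 without treated arrays 1, 2 and 3, and 6, 8 and 5 without untreated arrays 1, 2 and 3.

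Genes of detoxification and energy metabolism were called about as often as genes in general, or less. None of 32 cytochrome P450 genes of families 1 to 3 passed limma's threshold, although 26 were negative and 5 had an unadjusted p under 0.05, and the member with the smallest p was Cyp1a2 (-0.83 ± 0.25, adjusted p = 0.0755). Among 40 conjugation enzymes Nnmt rose and the sulfotransferases Sult1d1 and Sult1b1 and the glycosyltransferase Ugt3a2 fell, with changes of -0.69 to -0.66. Of 39 NRF2 targets and glutathione genes 2 rose, Cbr3 (0.67 ± 0.14) and Srxn1 (0.76 ± 0.19), while Nqo1 (0.20 ± 0.20), Hmox1 (0.68 ± 0.29) and Gclc (-0.25 ± 0.17) were not called. Slc22a7, an organic anion importer, read 9.38, 10.40 and 9.94 in MMS-treated arrays, against 11.33, 10.87 and 11.39 in untreated arrays, and fell by 1.29 ± 0.31, 1 of 4 lower among 29 transporters. The groups of Slc22a7 lay 0.46 apart at their nearest values. None of 51 respiratory chain and ATP synthase genes was called, with changes from -0.40 to 0.19, 42 negative values and 1 unadjusted p under 0.05 in limma. Their median was -0.08, and it was 0.12 under centring. Pfkfb3, which makes the allosteric activator of glycolysis, read 9.15, 9.60 and 9.99 in MMS-treated arrays, against 7.59, 8.14 and 8.30 in untreated arrays, and rose by 1.57 ± 0.32. The calls were 10 of 138 detoxification genes, 3 of which stayed called under centring, and 4 of 122 genes of carbon and energy metabolism, 2 of which did. Without treated arrays 1, 2 and 3 the detoxification lists kept 5, 5 and 3 calls, and without untreated arrays 1, 2 and 3 they kept 1, 4 and 0. The lists of carbon and energy kept 2, 2 and 2, and then 1, 2 and 2.

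Genome maintenance was represented by few genes. Among 20 genes that excise damaged bases or reverse the damage only Ung was called in the fit with all arrays. Ung, the uracil glycosylase, read 11.46, 11.01 and 11.46 in MMS-treated arrays, against 9.39, 9.46 and 9.77 in untreated arrays, 1.24 between the groups at their nearest values, and rose by 1.77 ± 0.28 (adjusted p = 0.0071, kept in every fit). Mpg, whose product acts on MMS lesions, read 8.19, 8.02 and 8.50 in MMS-treated arrays, against 7.94, 8.12 and 7.84 in untreated arrays, which overlap, and was not called (0.27 ± 0.19, adjusted p = 0.433). Nor were Apex1 (0.25 ± 0.18), Polb (0.02 ± 0.14, though 1 of its 2 other probe sets was called lower), Xrcc1 (-0.44 ± 0.16), Parp1 (-0.17 ± 0.15) or Mgmt (-0.57 ± 0.28), which act after Mpg or reverse methylation directly. In nucleotide excision and mismatch repair Cdk7 rose by 0.86 ± 0.19 and Msh6 fell by 0.64 ± 0.17, and 0 of 35 genes of double-strand break repair and checkpoints were called in limma (12 at an unadjusted p under 0.05). In the list written for p53 targets 3 of 29 genes fell and 1 rose (13.8% called, beside 7.53% of all genes). Ccng2, an unconventional cyclin, read 9.73, 9.32 and 9.58 in MMS-treated arrays, against 11.29, 10.66 and 11.10 in untreated arrays, and fell by 1.47 ± 0.21 (adjusted p = 0.00556, kept in every fit). Cdkn1a, the inhibitor p21, read 7.92, 7.33 and 7.87 in MMS-treated arrays, against 9.27, 9.05 and 10.64 in untreated arrays, and fell by 1.95 ± 0.51, a call lost in every reduced fit. Untreated array 3 was the highest for Cdkn1a. Mdm2 (0.41 ± 0.18) was not called.

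Replication genes were lower where they were called. Of 44 cell cycle and replication genes 6 fell, 0 rose and 38 were negative, with a median of -0.67. Tk1, the thymidine kinase of S phase, read 8.17, 8.75 and 8.82 in MMS-treated arrays, against 10.43, 9.95 and 10.62 in untreated arrays, and fell by 1.76 ± 0.26 (adjusted p = 0.00626, kept in every fit). The polymerase genes Pole, Pola1 and Prim1 fell, with changes of -1.44 ± 0.31, -1.10 ± 0.27 and -1.08 ± 0.28. The mean level of the list was 7.33 to 7.40 in MMS-treated arrays and 7.54 to 8.48 in untreated arrays, so the untreated animals differed among themselves. Without untreated array 2 a total of 18 genes of the list were called lower, and without untreated array 1 or 3 the number was 1. Of 33 apoptosis regulators 3 fell (9.09%, beside 5.33% of all genes). They were the caspase Casp2 (-0.76 ± 0.14), the pro-apoptotic Bok (-1.28 ± 0.28) and the anti-apoptotic Bcl2l1 (-0.48 ± 0.12). Over the 6 lists on the genome and cell death 16 of 175 genes were called (9.14%, beside 7.53% of all genes), 3 higher and 13 lower. Of the 16, 9 stayed called under centring and 10 after quantile normalization. Calls kept were 7, 5 and 5 without treated arrays 1, 2 and 3, and 3, 9 and 3 without untreated arrays 1, 2 and 3.

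Genes of the cytoskeleton and of cell contacts fell without a rise. Pls1, an actin-bundling protein of microvilli, read 5.05, 5.42 and 4.64 in MMS-treated arrays, against 8.55, 7.34 and 8.22 in untreated arrays, and fell by 3.00 ± 0.43 (8.02-fold). Cldn1, a claudin of tight junctions, read 8.79, 8.60 and 8.64 in MMS-treated arrays, against 11.07, 10.89 and 10.84 in untreated arrays, and fell by 2.26 ± 0.36 (4.78-fold). Cdh1, E-cadherin, averaged 9.79 ± 0.18 in MMS-treated arrays and 11.06 ± 0.04 in untreated arrays (SD, n = 3 each), and fell by 1.27 ± 0.14 (2.41-fold). The nearest values of the groups lay 1.93, 2.06 and 1.02 apart, and all 3 genes were kept in every fit, as was Tjp3, a scaffold of tight junctions outside the lists (-1.87 ± 0.26). Cap1, which recycles actin monomers, fell by 1.51 ± 0.24, and the integrins Itga5 and Itgb5 fell, with changes of -0.96 ± 0.18 and -0.84 ± 0.16. Tubb2a, a beta tubulin, fell by 1.62 ± 0.35, in a call lost in 5 of 6 reduced fits. Together 11 of 83 genes were called (13.25%, beside 7.53% of all genes), and 7 stayed called under centring. By list the calls were 6 of 47 for actin and adhesion and 5 of 36 for tubulins, junctions and keratins. Of the 11 called, 7, 9 and 6 stayed called without treated arrays 1, 2 and 3, and 6, 7 and 4 without untreated arrays 1, 2 and 3.

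Markers of cells around the hepatocyte were among the genes that fell. Of 30 stellate cell and fibroblast markers 13 fell, 0 rose and 26 were negative, with a median of -0.91 that stayed at -0.74 and -0.72 under both other scalings. Col1a1, a chain of type I collagen, read 8.47, 8.55 and 8.58 in MMS-treated arrays, against 10.89, 10.21 and 11.95 in untreated arrays, and fell by 2.49 ± 0.34 (adjusted p = 0.00457). Treated arrays stood within 0.11 of each other, and untreated arrays spread over 1.75, array 3 highest. Lhx2, a transcription factor of quiescent stellate cells, read 6.12, 5.73 and 6.34 in MMS-treated arrays, against 7.48, 7.25 and 7.27 in untreated arrays, and fell by 1.27 ± 0.16 (adjusted p = 0.00357). Of the 13 calls, 11 were of collagen genes or Lhx2 and the others were Lum and the protease Mmp2 (-1.69 ± 0.25). The retinol-storage enzyme Lrat (-0.94 ± 0.39) and the filament gene Des (-0.53 ± 0.53) were not called. The number lower was 11 to 13 when any 1 array was left out. Mean levels of the list were 8.24 to 8.38 in MMS-treated arrays and 8.89 to 9.49 in untreated arrays.

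With the deposited scaling all 23 endothelial markers had negative values, from -1.06 to -0.09. The list median was -0.33, and it was -0.20 after quantile normalization and -0.14 under centring. The 6 that fell were Clec14a (-0.99 ± 0.17), Tek (-0.73 ± 0.13), Oit3 (-0.69 ± 0.14), Kdr (-0.65 ± 0.13), Cdh5 (-1.06 ± 0.23) and Stab2 (-0.52 ± 0.13). The mean level of the list was 8.38 to 8.52 in MMS-treated arrays and 8.78 to 8.97 in untreated arrays, with 0 calls left without untreated array 3. Among 14 cholangiocyte markers 3 fell. Pkhd1, fibrocystin of the bile duct cilium, read 6.03, 6.13 and 6.06 in MMS-treated arrays, against 8.53, 7.53 and 8.34 in untreated arrays, and fell by 2.06 ± 0.23 (adjusted p = 0.00217, kept in every fit). Prom1 and Tff3 fell, with changes of -1.16 ± 0.20 and -2.40 ± 0.48, while Krt19 (-0.78 ± 0.40), Epcam (-0.36 ± 0.37) and Sox9 (-0.43 ± 0.28) were not called. Of 25 Kupffer cell and macrophage markers 4 fell and 1 rose. Adgre1, which encodes a macrophage surface receptor, fell by 0.98 ± 0.15 and Hpgd fell by 1.09 ± 0.17, both kept in every fit, the mannose receptor Mrc1 fell by 0.69 ± 0.13, and the scavenger receptor Marco rose by 1.29 ± 0.34. Clec4f, which marks Kupffer cells, was not called (-0.64 ± 0.31). Mean levels of the macrophage list overlapped, 9.70 to 10.05 in MMS-treated arrays and 9.82 to 10.22 in untreated arrays. Lymphocyte markers fell in 3 of 27 cases (11.1%, beside 5.33% of all genes). Their mean levels were 5.84 to 6.01 in MMS-treated arrays and 6.25 to 6.42 in untreated arrays.

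Hepatocyte markers checked the tissue label: their mean level was 13.53 to 13.78 in MMS-treated arrays and 13.79 to 13.82 in untreated arrays, and 1 of 15, G6pc, was called. Pancreatic acinar markers, which can enter liver samples from neighbouring tissue, had a mean level of 5.70 to 7.52 in MMS-treated arrays and 6.03 to 6.44 in untreated arrays, and 0 of 18 were called in limma (0 at an unadjusted p under 0.05). Of 15 erythroid markers 3 fell and Hba-a1 rose by 0.93 ± 0.14. Its relative Hbb-b2 fell by 0.49 ± 0.13, so the globin probe sets went opposite ways. The carbonic anhydrase Car2 fell by 1.63 ± 0.22 and was kept in every fit. Over the 12 cell type lists 41 of 214 genes were called (19.2%, beside 7.53% of all genes), 7 higher and 34 lower. Of these, 25, 26 and 28 stayed called without treated arrays 1, 2 and 3, and 20, 30 and 18 without untreated arrays 1, 2 and 3.

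Outside the lists 698 genes were called. Aqp8, an aquaporin of the hepatocyte canalicular membrane and mitochondria, read 9.53, 9.76 and 9.82 in MMS-treated arrays, against 11.42, 11.31 and 11.45 in untreated arrays, and fell by 1.69 ± 0.16 (adjusted p = 0.00186). Psen2, a catalytic subunit of gamma-secretase, read 9.45, 9.59 and 9.42 in MMS-treated arrays, against 10.98, 11.14 and 11.04 in untreated arrays, and fell by 1.57 ± 0.17 (adjusted p = 0.00214). Anp32a, a histone-binding phosphatase inhibitor, read 9.77, 9.98 and 9.90 in MMS-treated arrays, against 11.44, 11.22 and 11.32 in untreated arrays, and fell by 1.44 ± 0.14 (adjusted p = 0.00186). Arrays of a group lay close together for these genes, and the nearest values of the groups were 1.49, 1.40 and 1.24 apart. Defb1, an antimicrobial defensin, fell by 1.81 ± 0.20. Syne1, which links the nucleus to actin, fell by 1.97 ± 0.22. Genes that rose included Mbd1, which binds methylated DNA (0.95 ± 0.15, with its 4 other probe sets called the same way), Mis12, a kinetochore protein (1.26 ± 0.21), and Ngdn, a nucleolar protein of ribosome assembly (0.81 ± 0.12). Epha8, an ephrin receptor, read 7.26, 6.22 and 6.44 in MMS-treated arrays, against 5.20, 4.61 and 4.03 in untreated arrays, and rose by 2.03 ± 0.32 at low levels. All of these were kept in every fit. For 417 called genes the array holds 669 further probe sets, of which 550 had the same sign, 177 were called the same way and 0 the opposite way.

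The calls were spread unevenly over gene length, measured from the start to the end of the gene in RefSeq for 12377 genes. The median length was 13.2 kb for genes that rose and 39.7 kb for genes that fell, against 20.1 kb for all. Of the 1238 longest genes, 110 to 3171 kb, 13.1% fell (162) and 0.646% rose, and of the 1238 shortest 3.15% fell and 2.75% rose. The median change of the longest was -0.21 in wild-type liver and -0.27 in knock-out liver. Lower calls made up 3.39% to 8.32% of the longest genes when any 1 array was left out and 7.11% under centring, where their median change was -0.02 beside 0.18 for the shortest. Expression level moved with the calls as well: in 4 equal groups by mean level, dim to bright, 0.742%, 7.36%, 8.52% and 4.68% of genes fell and 1.52%, 1.61%, 3.26% and 2.42% rose. The part of expression level and of cell type in the trend with length was not tested.

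**Figure D4:**
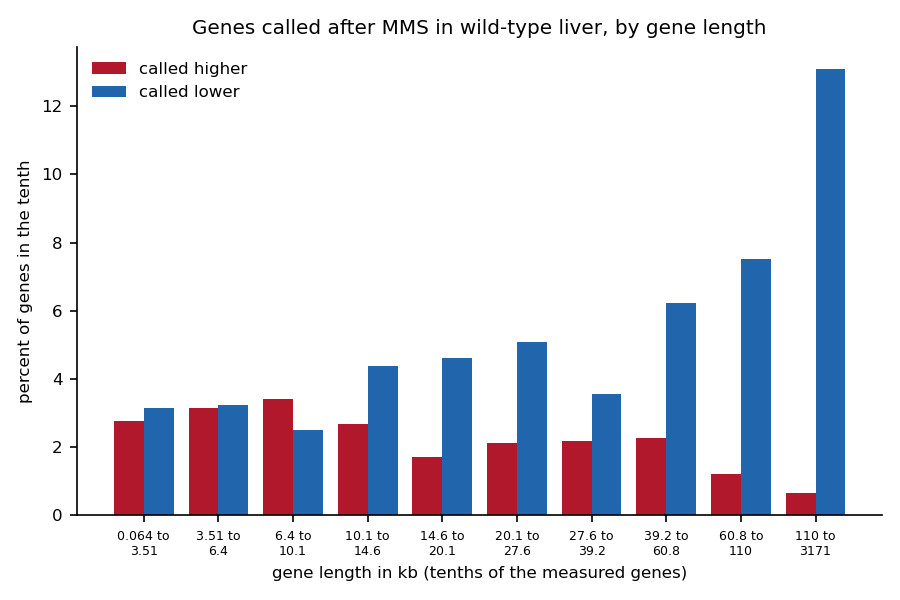
Percent of genes called higher (red) and lower (blue) in MMS-treated wild-type liver, in 10 groups of equal size by gene length in kb on the x axis. The share that fell is 13.1% in the group of the longest genes and 3.15% in that of the shortest.

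The wild-type response was set against that of Aag knock-out liver, which asks whether the glycosylase shapes the response. Of the 171 genes kept in every fit, 158 had the same sign in the knock-out response and 166 changed more in wild type, with a median absolute change of 1.30 in wild-type liver and of 0.51, counted in the wild-type direction, in knock-out liver. These genes were chosen on their wild-type values, so the larger change in wild type is fixed in part by the choice, and nothing is tested on them as a list. The difference of the responses, tested over all probe sets in limma, had 0 of 22626 called (0%), the smallest adjusted p was 0.0649, and 4009 (17.7%) had an unadjusted p under 0.05. Irs1 changed by -1.51 ± 0.13 in wild-type liver and by -0.05 ± 0.13 in knock-out liver (adjusted p of the difference = 0.0649). Car2 changed by -1.63 ± 0.22 in wild-type liver and by 0.35 ± 0.22 in knock-out liver (adjusted p of the difference = 0.0649). Genes with like values in both were Nupr1, 2.10 ± 0.29 in wild-type liver and 1.98 ± 0.29 in knock-out liver, and Robo1, a guidance receptor, -1.93 ± 0.28 in wild-type liver and -1.74 ± 0.28 in knock-out liver. The count of differences depends on which arrays are weighed: without both knock-out arrays numbered 3 it was 514, and with array weights it was 2344. Those weights were 0.489, 0.380 and 2.80 for treated wild-type arrays 1, 2 and 3, 1.10 to 2.23 for untreated wild-type arrays, and 0.303 and 0.412 for the treated and untreated knock-out arrays numbered 3.

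**Figure D5:**
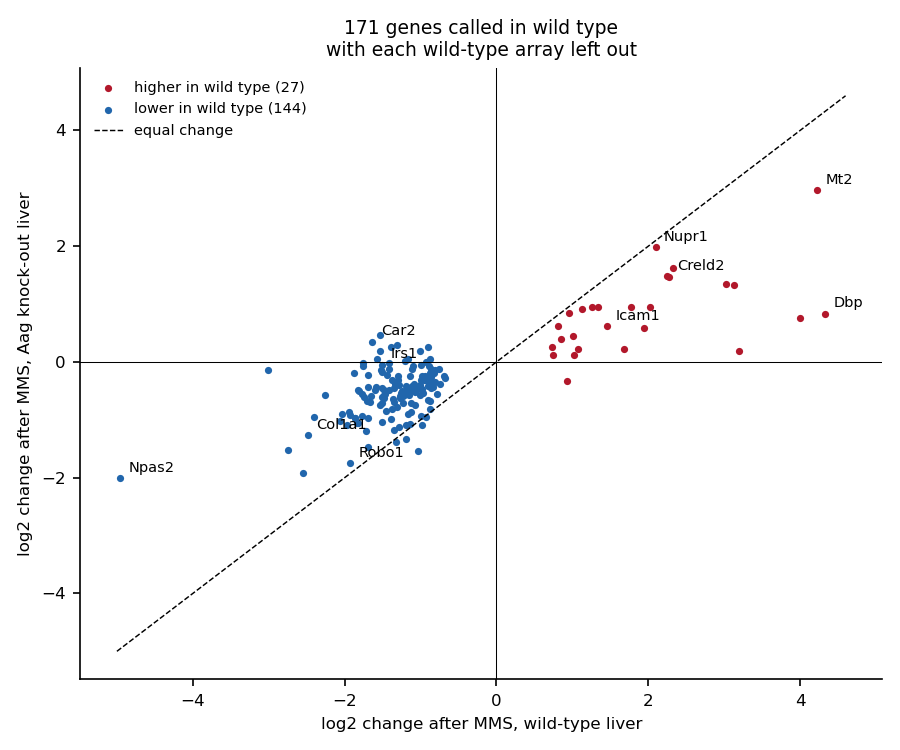
Log2 change after MMS in wild-type liver (x axis) and in Aag knock-out liver (y axis) for the 171 genes called in wild type with all arrays and without each wild-type array, 27 higher in red and 144 lower in blue. The dashed line marks equal change; 166 genes changed more in wild type, the direction in which they were chosen.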

How the data were processed

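Total RNA from whole liver had been extracted with Trizol, turned into biotin-labelled cRNA and hybridised to 1 array an animal, per the labels' protocols. The deposited values are log2 expression values from robust multi-array averaging (RMA), per the submitters' processing notes; the software version is not given in the sources used here, nor is it stated that the 12 arrays were averaged in 1 run, and the values were used as deposited. Of 22690 probe sets, 64 control probe sets were left out and 22626 tested. Names came from the platform annotation, updated through RefSeq (GRCm38.p6): 1 gene symbol was found for 20380 probe sets, several for 691 and none for 1555, and only the first kind was named. Where a gene had more than 1 probe set, that of the highest average level across all 12 arrays stood for it.

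Group means of the 4 groups were fitted to all 12 arrays in limma 3.58.1 (R 4.3.3) with 8 residual degrees of freedom, and p-values were adjusted by the Benjamini-Hochberg method over all probe sets, with a threshold of 0.05. Each array is a separate animal, so p-values measure the spread between animals. The fit was tested on simulated data with known changes. It recovered 95 of 100 changes of 2 log2 units but only 57 of 100 changes of 1 log2 unit, and 9 of its 161 calls were false. The simulated noise was independent between probe sets, with no deviation shared across an array. These rates therefore need not hold for the deposited values. Files and labels name no scan date or batch.

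The comparison and the 81 gene lists were chosen with earlier results of these data known, so counts over a list describe it and carry no test. Named were the called members of each list in order of p, up to 6, or the member with the smallest p where none was called, then 20 genes a direction outside the lists, 20 a direction with the largest change among those kept in every fit, and Mpg. Further members of a list were named with their values by role. Alternatives were filters on low values, quantile normalization and centring, a trended prior, array weights, a replicate block, other arrays in the fit, other ways of summing up probe sets and leaving out each array.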

Additional observations from a re-analysis of the deposited data

How the results depend on the processing

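The count of 1458 probe sets called in wild-type liver was 274 to 877 with 1 wild-type array left out, 2222 without both knock-out arrays numbered 3 and 4873 with array weights; other settings gave 1344 to 1785 probe sets, 1050 genes with 1 probe set a gene and 1044 with probe sets averaged. The difference of the responses, with 0 called, had 30 called without the dimmest 25% of probe sets, 33 with values above the median required, 28 with a trended prior, 20 with 1 probe set a gene, 3 with probe sets averaged, 514 without both knock-out arrays numbered 3, 2344 with array weights and 0 to 2 with 1 wild-type array left out. Animals share replicate numbers across groups. Same-numbered treated and untreated wild-type arrays deviated together only weakly (0.18, -0.11 and 0.18). This did not show that the numbers pair them, and 3 arrays a group cannot exclude it. With the replicate block 1370 probe sets were called and 0 differed between genotypes. Among 280 named genes, centring ended the call of 60, quantile normalization that of 27 and the block that of 47, and leaving out 1 array ended 93 to 165. The single change of sign was in the chemokine gene Cx3cl1: the log2 change of Cx3cl1, -0.64 and called lower, was 0.0945 with its probe sets averaged. The causes were not tested. With a median standard error of 0.187, changes under 1 log2 unit often lie at the limit of 3 arrays a group.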
